A study of Homo sapiens with 8 samples.

Results

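The genes analyzed were 9 genes of 53BP1 and non-homologous end joining, TP53BP1, RIF1, XRCC5, XRCC6, PRKDC, LIG4, XRCC4, NHEJ1 and DCLRE1C. They were chosen by name and not by a cut on their values, though with earlier results of these data known. Each was found among the 26364 genes of the count file. All 9 also passed the filter on low counts, as did 14201 genes in total. The RNA came from LN229 cells, a human glioblastoma line that carries functional p53 and mismatch repair and lacks MGMT. A plasmid encoding either intact or mutated survivin, fused to eGFP, had been introduced and selected with G418, and each construct is represented by a single clone of its own. In Surv-GFP (D6) the nuclear export signal (NES) of survivin is intact and the fusion protein is mostly cytoplasmic, whereas in SurvNESmut-GFP (L2) the NES is mutated and the protein stays mostly in the nucleus. Each clone was either untreated or exposed to 50 µM temozolomide (TMZ), a methylating drug used in glioblastoma, for 48 h, and each of these 4 groups had 2 libraries, lettered a and b. With 1 clone for each construct, the site of survivin and other differences between the clones cannot be told apart. The study's legends speak of independent biological replicates that were each run as technical duplicates, but do not say which of these the letters a and b are, so the p-values measure the spread between letters, which may be technical.

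Non-homologous end joining ligates the ends of a DNA double-strand break directly, without a template. XRCC6 (Ku70) and XRCC5 (Ku80) form the ring that threads onto a broken end and recruits PRKDC, the catalytic subunit of DNA-PK. DCLRE1C (Artemis) is the nuclease that opens and trims ends, and LIG4 with its partner XRCC4 seals them, aided by NHEJ1 (XLF). TP53BP1 (53BP1) binds modified histones beside the break and, through RIF1 and shieldin, limits the resection of ends that would commit them to homologous recombination. In TMZ-exposed cells, double-strand breaks arise when mismatch repair acts on O6-methylguanine and replication forks then collapse.

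Each library held 15826923 to 18861603 reads on genes. Within a group the 2 libraries were correlated on the log2 CPM scale at r = 0.994 or above across genes, and libraries of different groups at 0.986 or below. CPM here are the counts of a gene relative to the TMM-scaled total of its library. The 2 TMZ-exposed SurvNESmut-GFP libraries differed most from each other, with a chi-square of 5.74 per gene against 2.2 to 2.66 in the other 3 pairs. All pairs thus differed by more than counting noise and were kept as separate libraries. Of the 8 neural and glioma markers, VIM (2347 to 3782 CPM) and NES, the gene of nestin (524 to 1005 CPM), were high in all libraries. The astrocyte marker GFAP stayed at 0.921 CPM or less and AQP4 at 0.163 CPM or less. S100B (14.3 to 798), SOX2 (19.4 to 92.5), OLIG2 (5.54 to 35.2) and SLC1A3 (2.67 to 30.6 CPM) varied widely between libraries. Endothelial, epithelial and immune markers were at 0.867 CPM or less, apart from CD68 at 11.9 to 21.4 CPM. BIRC5 reads, which include those of the transgene, averaged 1130 ± 27.9 CPM in untreated Surv-GFP and 411 ± 5.21 CPM in untreated SurvNESmut-GFP (SD, n = 2). Upon TMZ they averaged 1983 ± 64.6 CPM in Surv-GFP and 257 ± 6.89 CPM in SurvNESmut-GFP. On the log2 scale BIRC5 thus rose by 0.81 in Surv-GFP and changed by -0.67 in SurvNESmut-GFP. The part of the BIRC5 level in the other values was not tested. CDKN1A, the p53 target p21, was 3.52 higher on the log2 scale upon TMZ in Surv-GFP and 1.96 higher in SurvNESmut-GFP, with adjusted p = 1e-15 and 4.2e-12.

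To show the DNA at which transcription of the genes starts, the promoters of the 53BP1 axis, of Ku70 and of the ligase are printed, since these 4 genes were higher in untreated SurvNESmut-GFP. Promoter sequences were taken from the RefSeq table of GRCh38.p14, as 250 bases before and 50 bases after a start. Windows were read for 7 of the 9 genes, and XRCC5 and PRKDC were left out. TP53BP1 lies on chr15:43510591-43510890 on the minus strand, RIF1 on chr2:151409652-151409951 on the plus strand, XRCC6 on chr22:41621045-41621344 on the plus strand and LIG4 on chr13:108218300-108218599 on the minus strand. For LIG4 the table holds 5 starts and the first one listed was used. Capitals mark matches, on either strand, to the GC box GGGCGG, the CCAAT box CCAAT, the ETS site CCGGAAG, the NRF1 core GCGCATGC, the E2F site TTTCCCGC and the CHR element TTTGAA. All are written 5′ to 3′ along the gene.
TP53BP1: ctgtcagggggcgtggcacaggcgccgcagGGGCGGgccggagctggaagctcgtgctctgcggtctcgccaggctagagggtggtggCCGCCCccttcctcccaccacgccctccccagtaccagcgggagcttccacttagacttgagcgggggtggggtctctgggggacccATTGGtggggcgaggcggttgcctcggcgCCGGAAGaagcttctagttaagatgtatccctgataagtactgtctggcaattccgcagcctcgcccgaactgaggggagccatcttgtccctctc
RIF1: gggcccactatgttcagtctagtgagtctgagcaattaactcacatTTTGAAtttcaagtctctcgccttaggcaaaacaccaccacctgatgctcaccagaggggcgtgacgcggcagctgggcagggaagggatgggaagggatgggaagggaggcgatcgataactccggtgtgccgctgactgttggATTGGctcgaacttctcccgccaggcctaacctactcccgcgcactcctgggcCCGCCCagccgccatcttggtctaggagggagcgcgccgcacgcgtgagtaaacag
XRCC6: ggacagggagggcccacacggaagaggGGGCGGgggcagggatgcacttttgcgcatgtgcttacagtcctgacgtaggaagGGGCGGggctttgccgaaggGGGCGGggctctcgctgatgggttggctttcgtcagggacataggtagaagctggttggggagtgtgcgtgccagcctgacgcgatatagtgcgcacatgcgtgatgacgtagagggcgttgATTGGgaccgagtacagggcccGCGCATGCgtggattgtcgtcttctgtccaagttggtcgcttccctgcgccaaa
LIG4: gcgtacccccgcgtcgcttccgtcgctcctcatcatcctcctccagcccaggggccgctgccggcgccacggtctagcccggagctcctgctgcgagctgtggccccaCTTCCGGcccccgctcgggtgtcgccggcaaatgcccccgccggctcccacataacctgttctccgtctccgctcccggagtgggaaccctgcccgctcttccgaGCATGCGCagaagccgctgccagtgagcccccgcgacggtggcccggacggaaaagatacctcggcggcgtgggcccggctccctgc
The LIG4 window was the richest in GC of the 7, at 72.3% with 35 CpG, against a median of 58.3% and 14 CpG over 27305 promoters. DCLRE1C was the poorest at 47% with 11 CpG. GC boxes were found in 6 of the 7 windows (44.6% of all promoters hold one), the exception being LIG4, and CCAAT boxes in 5 (35.7%). An ETS site was found in TP53BP1, LIG4 and XRCC4 (10.7%) and an NRF1 core in XRCC6 and LIG4 (3.27%). The CHR element occurred in RIF1 alone of the 7 (15.4%) and the E2F site in none of them (1.66%). No matches overlapped in the printed windows.

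To compare levels between genes, CPM were divided by the length of the union of exons in GENCODE v29, since reads of longer genes are more numerous. In untreated Surv-GFP the 3 DNA-PK genes stood far above the others, with XRCC5 at 175 CPM per kb in both libraries, XRCC6 at 131 and 136, and PRKDC at 81.1 and 88.0. The remaining 6 genes lay between 3.81 and 9.60 CPM per kb. TP53BP1 (9.06 and 9.60) came next, followed by NHEJ1 (8.20 and 8.43), RIF1 (7.80 and 8.55) and XRCC4 (6.51 and 7.78). The values of NHEJ1 and RIF1 overlapped, so their order is not resolved. LIG4 (4.45 and 4.79) and DCLRE1C (3.81 and 3.82), the ligase and the nuclease, were lowest. In untreated SurvNESmut-GFP, XRCC6 averaged 184 CPM per kb and thus stood above XRCC5 at 155. This order of the Ku genes on the per-kb scale was kept upon TMZ in both clones, at means of 126 for XRCC5 and 95.6 for XRCC6 in Surv-GFP and of 132 and 148 in SurvNESmut-GFP. Before the division by length, XRCC5 was above XRCC6 in SurvNESmut-GFP as well, at 583 against 542 CPM untreated and 495 against 436 CPM with TMZ. The per-kb order in that clone thus rests on the exon lengths used, and the annotation of the counts is not known.

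**Figure D1:**
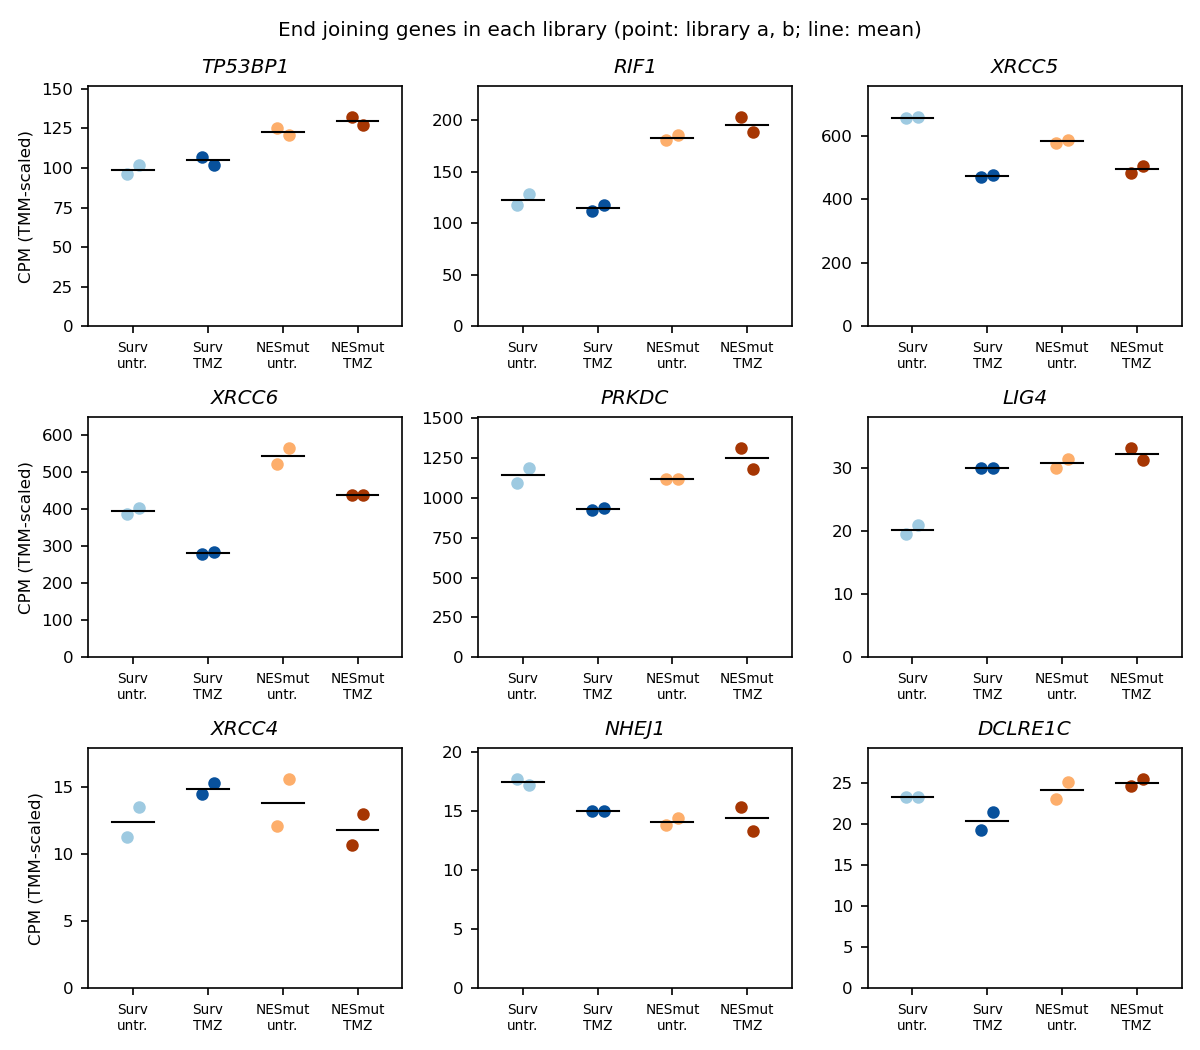
CPM of the 9 genes (y axis, from 0, with a scale of its own for each gene) in each of the 8 libraries, grouped on the x axis as Surv-GFP untreated and TMZ and SurvNESmut-GFP untreated and TMZ (untr., untreated; Surv, Surv-GFP; NESmut, SurvNESmut-GFP). Points are libraries and lines are group means; TP53BP1 and RIF1 separate the clones with and without TMZ, and LIG4 is low in untreated Surv-GFP only, at 19.6 and 21.0 CPM.

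To analyze whether TMZ altered the transcripts of end joining, exposed and untreated cells were compared within each clone. In Surv-GFP the genes of the DNA-PK holoenzyme fell and LIG4 rose. Of the 9 genes, 1 was higher and 3 were lower by an adjusted p of 0.05, in a comparison in which 30.1% of all genes were higher and 28.9% lower (58.9% in either direction). The median log2 fold change of the 9 genes was -0.20, against 0 over all genes. In SurvNESmut-GFP 1 gene was higher (PRKDC) and 2 were lower (both Ku genes), where 18.6% of all genes were higher and 19.1% lower (37.8% in either direction). Their median was 0.05, against 0 over all genes. The share of called genes was therefore not above that of the background in either clone. The count of 4 in Surv-GFP became 7 without either of the TMZ-exposed SurvNESmut-GFP libraries, through XRCC4, NHEJ1 and DCLRE1C, whose adjusted p lay near the threshold. In bulk RNA, fewer cells expressing a gene and less RNA of it per cell cannot be told apart.

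The end sensors of the pathway are the Ku subunits. In untreated Surv-GFP, XRCC5 was at 656 and 659 CPM, and upon TMZ at 470.3 and 478 CPM. XRCC6 went from 385 and 401 CPM to 279 and 283 CPM. The libraries of the 2 conditions did not overlap for either gene, and the falls were of nearly the same size, by 0.47 ± 0.05 for XRCC5 and by 0.48 ± 0.05 for XRCC6 on the log2 scale (SE), with adjusted p = 1.5e-07 and 3.7e-07. In SurvNESmut-GFP, XRCC5 was at 578 and 588 CPM without and at 483 and 506 CPM with TMZ, and XRCC6 at 521 and 563 CPM without and at 436 and 437 CPM with TMZ. Again no libraries overlapped. XRCC5 fell by 0.24 ± 0.05 and XRCC6 by 0.31 ± 0.05, with adjusted p = 0.00058 and 0.0001. The smaller fall of XRCC5 in SurvNESmut-GFP passed the test of the difference between clones (0.24, 95% interval 0.10 to 0.37, adjusted p = 0.0081). For XRCC6 that difference was 0.17 (0.02 to 0.32) and missed the threshold, at adjusted p = 0.066. It passed with DESeq2 size factors in place of TMM (adjusted p = 0.043), as it did in 6 of 17 settings.

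PRKDC encodes the kinase that Ku recruits. In Surv-GFP it was at 1095 and 1189 CPM without and at 924 and 935 CPM with TMZ. Both exposed libraries lay below both untreated ones, a fall by 0.30 ± 0.05 (adjusted p = 0.00014). In SurvNESmut-GFP the untreated libraries had 1119 and 1117 CPM and the exposed ones 1312 and 1185 CPM, both above the untreated, and the fitted change was a rise of 0.16 ± 0.05 (adjusted p = 0.025). This rise was small and unequal between the letters, and it was no longer called without the exposed library a (0.09, adjusted p = 0.20), without untreated library a (adjusted p = 0.10) or b (0.11), or when only the 4 libraries of this clone were fitted (0.064). The difference of the TMZ effects was 0.46 (0.30 to 0.62, adjusted p = 0.00016) and was called in all 17 settings. The fall in Surv-GFP was called in 17 of 18 alternative settings and the rise in SurvNESmut-GFP in 13 of 18. GENCODE places the replication helicase gene MCM4 head to head with PRKDC, with starts within 1000 bp. MCM4 fell by 0.67 ± 0.05 in Surv-GFP (adjusted p = 8e-09) and by 0.16 ± 0.05 in SurvNESmut-GFP (0.019). The latter call was lost with library size alone (-0.12, adjusted p = 0.063) and without the untreated SurvNESmut-GFP library a (-0.17) or b (-0.14).

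Among the ligation genes, LIG4 stood out. Its transcripts were at 19.6 and 21.0 CPM in untreated and at 30.0 and 30.1 CPM in exposed Surv-GFP, a rise of 0.57 ± 0.08 or 1.48-fold (adjusted p = 9.2e-06). In SurvNESmut-GFP the level was already 30.1 and 31.5 CPM without TMZ, and it was 33.2 and 31.3 CPM with TMZ, a change of 0.07 (-0.09 to 0.22, adjusted p = 0.51). The libraries of this clone overlapped. The difference between the effects, -0.50 (-0.73 to -0.27, adjusted p = 0.0016), was called in all 17 settings. ABHD13, whose start lies within 1000 bp of that of LIG4 on the other strand, had log2 fold changes of -0.05 in Surv-GFP (adjusted p = 0.66) and -0.22 in SurvNESmut-GFP (0.062).

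XRCC4, the scaffold without which LIG4 is unstable, was among the least abundant of the 9, with 183 to 280 reads per library. In Surv-GFP it was at 11.3 and 13.5 CPM without and at 14.5 and 15.3 CPM with TMZ, a difference of 0.27 (-0.01 to 0.55, adjusted p = 0.095). SurvNESmut-GFP had 12.1 and 15.6 CPM without and 10.7 and 13.0 CPM with TMZ, and these overlapped (-0.23, -0.52 to 0.06, adjusted p = 0.21). The difference of these effects, -0.49 (-0.90 to -0.09), missed the threshold at adjusted p = 0.052 and passed it in 6 of 17 settings. NHEJ1, the factor that bridges XRCC4 molecules, had 17.7 and 17.2 CPM in untreated and 15 CPM in both exposed Surv-GFP libraries (-0.22, adjusted p = 0.061). In SurvNESmut-GFP its values overlapped, at 13.8 and 14.4 CPM against 15.4 and 13.3 CPM (0.03, -0.19 to 0.25, adjusted p = 0.85). An annotated readthrough gene on the same strand, AC068946.1, shares 62.3% of the exon length of NHEJ1. The count file holds no gene of that name, and it is unknown how the reads were assigned. DCLRE1C, the nuclease, had 23.4 and 23.3 CPM in untreated and 19.3 and 21.5 CPM in exposed Surv-GFP (-0.20, adjusted p = 0.058). In SurvNESmut-GFP it had 23.1 and 25.2 CPM against 24.7 and 25.5 CPM (0.05, -0.12 to 0.23, adjusted p = 0.65).

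Neither gene of the 53BP1 axis was called upon TMZ. TP53BP1 was at 96.0 and 102 CPM in untreated and at 107 and 102 CPM in exposed Surv-GFP. Untreated SurvNESmut-GFP had 125 and 121 CPM and exposed SurvNESmut-GFP 132 and 127 CPM. The log2 fold change was 0.08 in both clones, with an interval from -0.03 to 0.19 in each and adjusted p = 0.20 and 0.22. Their difference was 0.00 (-0.15 to 0.16, adjusted p = 0.99). RIF1 was at 118 and 129 CPM without and at 112 and 118 CPM with TMZ in Surv-GFP, where the fitted change was -0.10 (-0.22 to 0.02, adjusted p = 0.16). In SurvNESmut-GFP it was at 181 and 186 CPM without and at 203 and 189 CPM with TMZ, a change of 0.09 (-0.03 to 0.21, adjusted p = 0.21). Its difference between clones was 0.19 (0.02 to 0.36, adjusted p = 0.074) and was called in 6 of 17 settings, among them no filter on low counts (0.042).

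**Figure D2:**
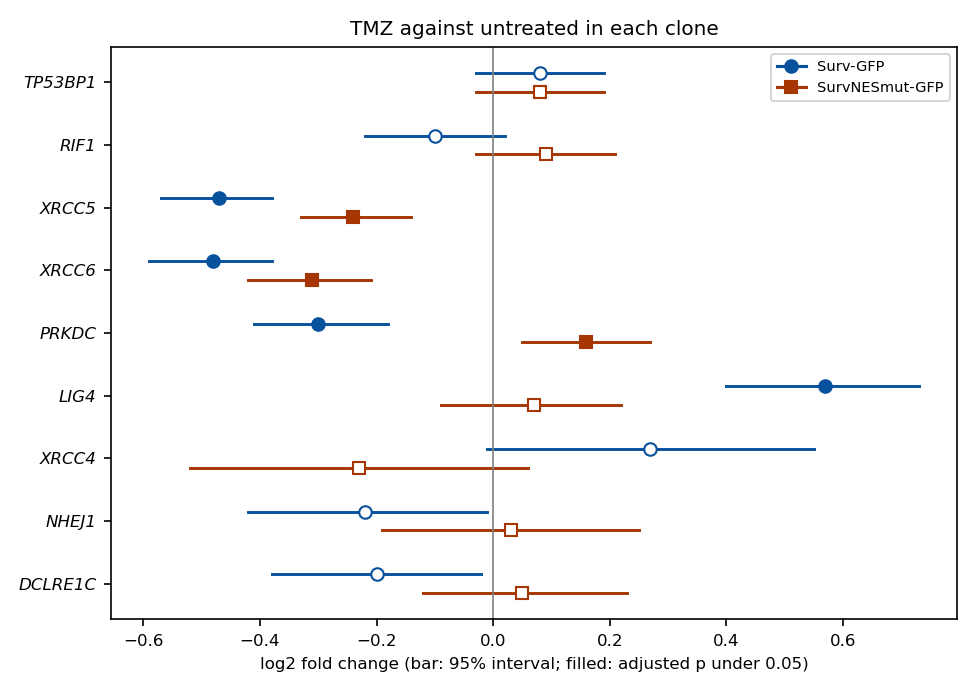
Log2 fold change of TMZ against untreated (x axis) for the 9 genes (y axis) in Surv-GFP (circles) and SurvNESmut-GFP (squares). Bars are 95% intervals from the joint fit of all 8 libraries, in which the 4 groups share the spread of a gene. Filled symbols have an adjusted p under 0.05. Both Ku genes lie left of 0 in both clones, and the intervals of XRCC5, PRKDC and LIG4 do not overlap between the clones.

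Over all 9 genes the difference of TMZ effects was higher in SurvNESmut-GFP for 2 (XRCC5 and PRKDC) and lower for 1 (LIG4). Of all genes, 16.6% were higher, 20.2% lower and 36.8% either. The median difference was 0.19 for the 9 genes and 0 for all genes. The count of 3 became 5 without the exposed Surv-GFP library b and 6 without the exposed SurvNESmut-GFP library b, and it was 5 with library size alone as the scaling and 6 with no filter. Proliferation markers moved in the same comparisons. All 12 of them were lower upon TMZ in Surv-GFP (median -0.94) and 11 of 12 in SurvNESmut-GFP (median -0.45), and 11 of 12 had the higher TMZ effect in SurvNESmut-GFP (median 0.49). Their summed level went from 3769 and 3990.1 CPM in untreated to 2108 and 2153 CPM in exposed Surv-GFP, and from 4505 and 4584 CPM to 3223 and 3306 CPM in SurvNESmut-GFP. The part of proliferation in the values of the end joining genes was not tested.

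To examine the clones themselves, SurvNESmut-GFP was compared with Surv-GFP in the untreated state and upon TMZ. Both genes of the 53BP1 axis and XRCC6 were higher in SurvNESmut-GFP in each state. Without TMZ, 4 of the 9 genes were higher (TP53BP1, RIF1, XRCC6 and LIG4) and 2 were lower (XRCC5 and NHEJ1), while 34.7% of all genes were higher, 29.4% lower and 64.1% either. With TMZ, 5 were higher (TP53BP1, RIF1, XRCC6, PRKDC and DCLRE1C) and 1 lower (XRCC4), where 34.5% of all genes were higher, 34.7% lower and 69.2% either. Median differences of the 9 genes were 0.16 and 0.30, against 0.03 and 0 over all genes. The 6 genes called in each state are a share of the 9 close to that of all genes, so only the single genes are described. Each of these comparisons shares libraries with the TMZ effects above.

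RIF1 differed most among the genes called in both states. Surv-GFP had 112 to 129 CPM over its 4 libraries and SurvNESmut-GFP 181 to 203 CPM, without overlap. The clone difference was 0.57 ± 0.06 without TMZ (1.49-fold, adjusted p = 1.8e-07) and 0.76 ± 0.06 with TMZ (1.7-fold, adjusted p = 4.8e-09). TP53BP1 ranged from 96.0 to 107 CPM in Surv-GFP and from 121 to 132 CPM in SurvNESmut-GFP, again without overlap. The difference was 0.31 ± 0.05 in each state (1.24-fold, adjusted p = 6.3e-05 and 5e-05). TUBGCP4 overlaps 28.9% of the exon length of TP53BP1 on the opposite strand, and it differed between the clones by 0.24 (adjusted p = 0.013) and 0.37 (0.00073). The sources used here do not say whether the libraries are stranded, so reads of the 2 genes cannot be told apart in the shared exons. TUBGCP4 was at 26.6 to 38.4 CPM, below TP53BP1 in every library. MAP1A, which starts within 1000 bp of TP53BP1 on the other strand, was lower in SurvNESmut-GFP by the same test, at -0.41 (adjusted p = 0.0012) and -0.65 (1.2e-05).

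The subunits of Ku went apart between the clones. XRCC6 was higher in SurvNESmut-GFP by 0.46 ± 0.05 without and 0.63 ± 0.05 with TMZ (adjusted p = 4.2e-07 and 8.9e-09). Its partner XRCC5 was lower without TMZ (-0.17 ± 0.04, adjusted p = 0.0027) and had a difference of 0.06 (-0.03 to 0.16, adjusted p = 0.24) with TMZ. The ratio of XRCC6 to XRCC5 reads, which needs no scaling between libraries, was 0.587 and 0.608 in untreated and 0.594 and 0.592 in exposed Surv-GFP. In SurvNESmut-GFP it was 0.902 and 0.957 without and 0.902 and 0.862 with TMZ. All 4 libraries of SurvNESmut-GFP were above all 4 of Surv-GFP, and within each clone the exposed and untreated ratios overlapped or met. DESI1, which starts within 1000 bp of XRCC6 on the other strand, showed clone differences of -0.02 (adjusted p = 0.86) and -0.11 (0.15).

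**Figure D3:**
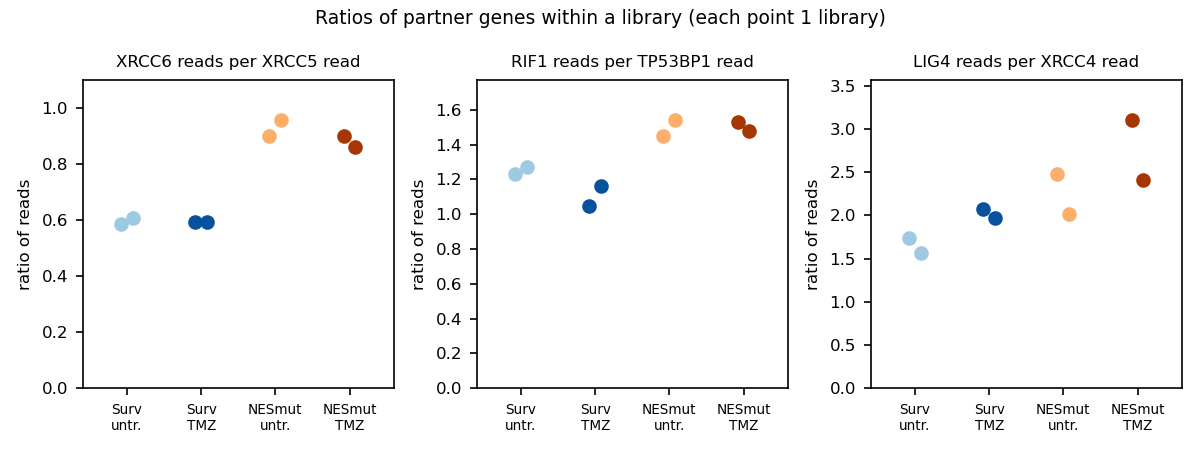
Ratio of the reads of 2 partner genes within a library (y axis, from 0) in the 4 groups (x axis; untr., untreated; Surv, Surv-GFP; NESmut, SurvNESmut-GFP), with 1 point per library. XRCC6 per XRCC5 read lies at 0.587 to 0.608 in Surv-GFP and at 0.862 to 0.957 in SurvNESmut-GFP, and LIG4 per XRCC4 read ranges from 1.56 to 3.10.

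LIG4 differed between the clones by 0.60 ± 0.08 without TMZ (1.52-fold, adjusted p = 3.6e-06) and by 0.10 (-0.05 to 0.26, adjusted p = 0.22) with TMZ. Its level in exposed Surv-GFP lay at or just under that of the SurvNESmut-GFP libraries. LIG4 reads per XRCC4 read were 1.74 and 1.56 in untreated and 2.07 and 1.97 in exposed Surv-GFP, and 2.48 and 2.02 in untreated and 3.10 and 2.41 in exposed SurvNESmut-GFP. The untreated Surv-GFP ratios were the lowest, and the other groups overlapped in part. PRKDC had the converse pattern, with -0.03 (-0.14 to 0.08, adjusted p = 0.63) in untreated cells and 0.43 ± 0.05 (adjusted p = 2.2e-06) upon TMZ. RIF1 reads per TP53BP1 read were 1.05 to 1.27 in Surv-GFP and 1.45 to 1.54 in SurvNESmut-GFP, without overlap.

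The remaining calls between clones were less firm. NHEJ1 was lower in untreated SurvNESmut-GFP (-0.31 ± 0.10, adjusted p = 0.011), but not without the untreated library a of Surv-GFP (adjusted p = 0.064) or of SurvNESmut-GFP (0.073). XRCC4 was lower with TMZ (-0.33 ± 0.14, adjusted p = 0.039), but the call was lost without the exposed Surv-GFP library b (0.13), without the exposed SurvNESmut-GFP library a (0.16) and with DESeq2 (0.078). DCLRE1C was higher with TMZ (0.30 ± 0.09, adjusted p = 0.0054), and the call was lost without the exposed Surv-GFP library a (0.13). SUV39H2, which overlaps 2.59% of its exon length on the opposite strand, differed by 0.29 in that comparison. Without TMZ, DCLRE1C (0.05, -0.13 to 0.22) and XRCC4 (0.16, -0.12 to 0.45) were not called, and with TMZ NHEJ1 was not (-0.06, -0.27 to 0.15).

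**Figure D4:**
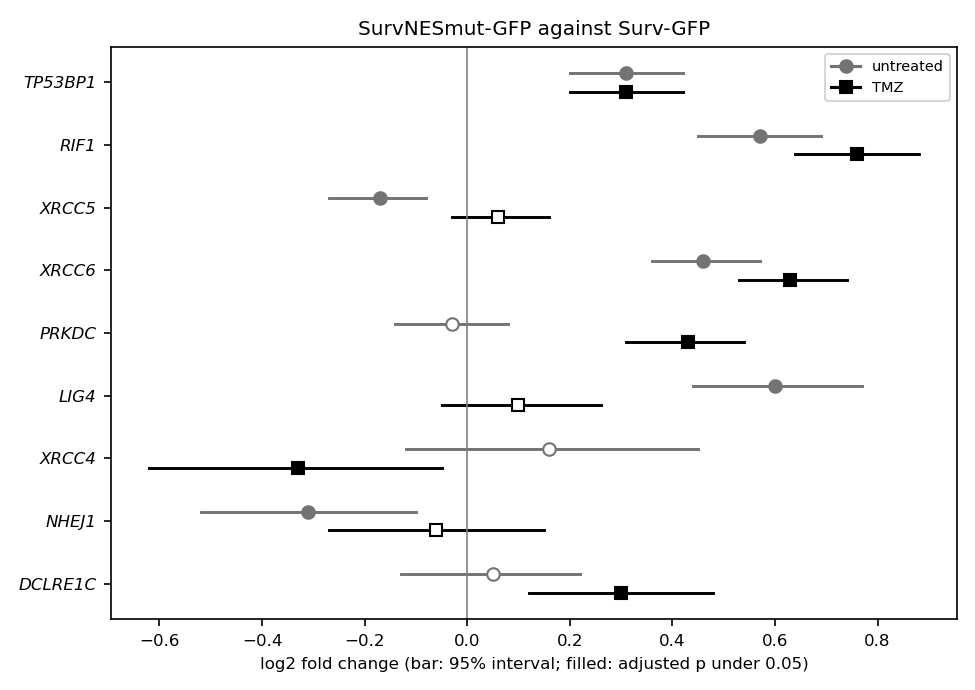
Log2 difference of SurvNESmut-GFP minus Surv-GFP (x axis) for the 9 genes (y axis), untreated (grey circles) and upon TMZ (black squares). Bars are 95% intervals from the joint fit of all 8 libraries, in which the 4 groups share the spread of a gene. Filled symbols have an adjusted p under 0.05. TP53BP1 is at 0.31 in both states and RIF1 at 0.57 and 0.76, while LIG4 and PRKDC are each called in 1 state.

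Related genes were grouped in 5 lists, written from general knowledge, and described by their counts and medians. Of the accessory factors of end joining, 11 of 12 were tested, since DNTT had no reads. Upon TMZ in Surv-GFP 4 of the 11 were higher and 1 lower (median 0.10), and in SurvNESmut-GFP 4 were higher and none of the 11 lower (median 0.01), where 30.1% and 28.9% of all genes were higher and lower in Surv-GFP and 18.6% and 19.1% in SurvNESmut-GFP. APTX, which removes AMP from failed ligations, rose from 31.3 and 35.1 CPM to 68.1 and 67.8 CPM in Surv-GFP (1.03 ± 0.07, adjusted p = 3.9e-09). In SurvNESmut-GFP it rose from 31.6 and 36.4 CPM to 44.5 and 45.9 CPM (0.41 ± 0.08, adjusted p = 0.00046), with a difference of -0.62 (adjusted p = 0.00024). POLL, a gap-filling polymerase, rose in Surv-GFP (0.57, adjusted p = 8e-06) and in SurvNESmut-GFP (0.29, 0.022), and it was lower in SurvNESmut-GFP than in Surv-GFP in each state (-0.73 and -1.02). APLF, a scaffold that binds Ku and XRCC4, rose in Surv-GFP (0.53, adjusted p = 0.0016) and in SurvNESmut-GFP (0.33, 0.027), with no call for the difference (-0.20, 0.37). In SurvNESmut-GFP both calls were lost with DESeq2 (adjusted p = 0.10 for POLL and 0.15 for APLF), without untreated library a (0.099 and 0.11) or b (0.083 and 0.10) and without exposed library b (0.062 and 0.13). C9orf142, which encodes the XLF paralog PAXX, rose in SurvNESmut-GFP (0.38, adjusted p = 0.0046), but not without its untreated library a (0.073). TDP1, which removes trapped topoisomerase from ends, fell in Surv-GFP (-0.48, adjusted p = 0.00011). Between the clones 3 were higher and 3 lower without TMZ (median -0.06), and 3 higher and 5 lower with TMZ (median -0.12), with 34.7% higher and 29.4% lower of all genes without TMZ and 34.5% and 34.7% with TMZ. TDP1 was higher in both states (0.38 and 0.68). TDP2, which removes topoisomerase II from ends, was higher without TMZ (0.34, adjusted p = 0.00083).

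Of the partners of 53BP1 and shieldin, 11 of 12 were matched by symbol and 10 were tested, since TEN1 had no reads. In Surv-GFP none of the 10 was higher and 3 were lower upon TMZ (median 0.05), and in SurvNESmut-GFP none was higher and 2 were lower (median -0.09). These shares of lower genes were close to those of all genes, 28.9% and 19.1%, and 30.1% and 18.6% of all genes were higher. PAXIP1 (PTIP), an effector that binds phosphorylated 53BP1, fell by 0.40 in Surv-GFP (adjusted p = 3.6e-05) and had -0.16 in SurvNESmut-GFP (adjusted p = 0.053). Its partner PAGR1 fell in Surv-GFP (-0.33, adjusted p = 9.9e-05) and in SurvNESmut-GFP (-0.15, 0.042), the latter lost without any 1 of the 4 libraries of that clone (0.067 to 0.19) or of the exposed Surv-GFP libraries (0.057 and 0.063), with a replicate block (0.055), DESeq2 (0.15), library size alone (0.12), no filter (0.057) or only the 4 libraries compared (0.074). DYNLL1, the light chain of dynein that binds 53BP1, fell in SurvNESmut-GFP (-0.19, adjusted p = 0.0041) and in Surv-GFP (-0.15, 0.013), the latter lost without the untreated Surv-GFP library a (0.077) or b (0.057) or the exposed library a (0.078). In the clone comparison 3 were higher and 2 lower without TMZ (median 0.14), and 4 higher and 2 lower with TMZ (median 0.15), beside 34.7% and 29.4% of all genes without and 34.5% and 34.7% with TMZ. The shieldin subunits MAD2L2 (REV7, -0.53 and -0.49) and C20orf196 (SHLD1, -0.48 and -0.64) were lower in SurvNESmut-GFP in both states. The call for C20orf196 without TMZ was lost with DESeq2 (adjusted p = 0.064). It was also lost when the untreated Surv-GFP library a (-0.44) or SurvNESmut-GFP library a or b (both -0.48) was left out. FAM35A, the symbol of SHLD2, has closely similar copies among which reads could be split, and its values are therefore not described. CTC1 of the CST complex, which fills in resected ends, was higher (0.51 and 0.32), with TMZ at an adjusted p of 0.053 without the exposed SurvNESmut-GFP library b.

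All 15 genes of break signaling and of the histone marks read by 53BP1 were tested. In Surv-GFP 4 were higher and 6 lower upon TMZ (median -0.05), and in SurvNESmut-GFP 5 were higher and 4 lower (median -0.01), beside 30.1% and 28.9% of all genes in Surv-GFP and 18.6% and 19.1% in SurvNESmut-GFP. H2AFX, the gene of histone H2AX, went from 160.0 and 160.2 CPM in untreated to 89.8 and 91.6 CPM in exposed Surv-GFP libraries (-0.82, adjusted p = 1.5e-09). In SurvNESmut-GFP it fell by 0.39 (adjusted p = 2e-05), and the difference of 0.43 passed the test (adjusted p = 0.00032). RNF168, the ligase that marks H2A for 53BP1, fell in both clones (-0.56 and -0.39), as did UBE2N, an E2 enzyme of break signaling (-0.48 and -0.40). The methyltransferases of H4K20, which 53BP1 reads in a methylated form, did not move together. SETD8 (KMT5A) rose in both clones (0.56 and 0.31). SUV420H1 (KMT5B) rose in Surv-GFP (0.26, adjusted p = 0.0004) and fell in SurvNESmut-GFP (-0.23, adjusted p = 0.0049), where it reached 0.05 without untreated library b. SUV420H2 (KMT5C) rose in SurvNESmut-GFP (0.69, adjusted p = 8.8e-06) and was at 0.10 in Surv-GFP (0.36). KDM4A, a demethylase that competes for the same mark, rose in both (0.27 and 0.34), as did RAD50 (0.23 and 0.34). MRE11A, its partner nuclease, fell in Surv-GFP (-0.40, adjusted p = 0.0016). Between the clones 6 were higher and 3 lower without TMZ (median 0.16), and 10 were higher and 1 lower with TMZ (median 0.35), beside 34.7% and 29.4% of all genes without and 34.5% and 34.7% with TMZ. ATM was among the 3 that were lower without TMZ (-0.21, adjusted p = 0.0044) and was not called with TMZ (-0.09, 0.19). SUV420H1 was lower in both states (-0.33 and -0.81). MRE11A (0.68 and 1.1) and UBE2N (0.51 and 0.6) were higher in both states. H2AFX was higher with TMZ (0.47) and not called without (0.04).

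The opposing step, end resection, was represented by 7 genes, all tested. Upon TMZ 3 were higher and 3 lower in Surv-GFP (median -0.01), and 4 were higher and none lower in SurvNESmut-GFP (median 0.22). Of all genes 30.1% were higher and 28.9% lower in Surv-GFP, and 18.6% and 19.1% in SurvNESmut-GFP. EXO1 (0.45 and 0.53) and RBBP8 (CtIP; 0.38 and 0.46), a nuclease and the cofactor that starts resection, rose in both clones. TRIP13, the ATPase that remodels REV7, rose in SurvNESmut-GFP (0.22, adjusted p = 0.0037) and in Surv-GFP (0.15, 0.041). The latter was lost with each other scaling and filter and with DESeq2 (0.078 to 0.21), with a replicate block (0.054) and without the untreated Surv-GFP library a (0.29), either exposed Surv-GFP library (0.23 and 0.10) or either untreated SurvNESmut-GFP library (both 0.051). DNA2, a nuclease of long-range resection, fell from 21.9 and 24.8 CPM to 15.2 and 14.9 CPM in Surv-GFP (-0.63, adjusted p = 1.5e-05) and was at 25.5 and 27.4 CPM against 29.4 and 28.4 CPM in SurvNESmut-GFP (0.13, adjusted p = 0.23). Their difference was 0.77 ± 0.12 (adjusted p = 0.00013). BLM, the helicase that works with DNA2, fell in Surv-GFP (-0.47, adjusted p = 0.00013), with a difference of 0.56 (adjusted p = 0.00062). BRCA1, which opposes 53BP1 at ends, rose in SurvNESmut-GFP (0.24, adjusted p = 0.0022), and its partner BARD1 was at -0.28 in Surv-GFP (adjusted p = 0.013), which was lost without the untreated (0.16) or exposed (0.074) Surv-GFP library b. In SurvNESmut-GFP 5 of the 7 were higher and 1 lower without TMZ (median 0.49), and 6 were higher and none lower with TMZ (median 0.70). The shares of all genes were 34.7% higher and 29.4% lower without TMZ, and 34.5% and 34.7% with TMZ. BLM had the largest of these differences, at 1.14 ± 0.07 and 1.71 ± 0.08, followed by TRIP13 at 1.06 and 1.13. Proliferation markers were also higher in SurvNESmut-GFP, 9 of 12 without TMZ (median 0.44) and all 12 with TMZ (median 0.85), and their part was not tested.

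Alternative end joining, which joins resected ends at short homologies, was represented by 7 genes. In Surv-GFP 1 was higher and 2 were lower upon TMZ (median -0.08), and in SurvNESmut-GFP 1 was higher and 1 lower (median 0.01), whereas 30.1% and 28.9% of all genes were higher and lower in Surv-GFP and 18.6% and 19.1% in SurvNESmut-GFP. PARP1, the sensor of this route, was at 417 and 433 CPM in untreated and at 241 and 239 CPM in exposed Surv-GFP, a fall by 0.83 ± 0.05 (adjusted p = 2.3e-10). SurvNESmut-GFP had 424 and 412 CPM without and 411 and 407 CPM with TMZ (-0.03, adjusted p = 0.61). The difference was 0.79 ± 0.07 (adjusted p = 1.3e-07). The exposed Surv-GFP libraries were thus the lowest for PARP1, as they were for PRKDC. LIG1 fell in Surv-GFP (-0.38, adjusted p = 1.3e-05) and XRCC1, the scaffold of LIG3, rose there (0.42, adjusted p = 3.4e-06). Both differed between the clones in their TMZ effect (0.42 and -0.42, adjusted p = 0.00024 and 0.00036). POLQ, the polymerase that defines the route, rose in SurvNESmut-GFP (0.34, adjusted p = 0.0006), and LIG3 fell there (-0.24, adjusted p = 0.0034). Without TMZ 4 genes were higher in SurvNESmut-GFP and none lower (median 0.31), and with TMZ 4 were higher and 1 lower (median 0.64), whereas 34.7% and 29.4% of all genes were higher and lower without TMZ and 34.5% and 34.7% with TMZ. FEN1, the flap endonuclease, was higher in both states (0.66 and 0.64). For the lists with no edgeR call in a direction, the same holds for DESeq2. At an unadjusted p of 0.05 edgeR called 1 accessory factor lower in SurvNESmut-GFP, and 0 genes in the other such cases given above.

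**Figure D5:**
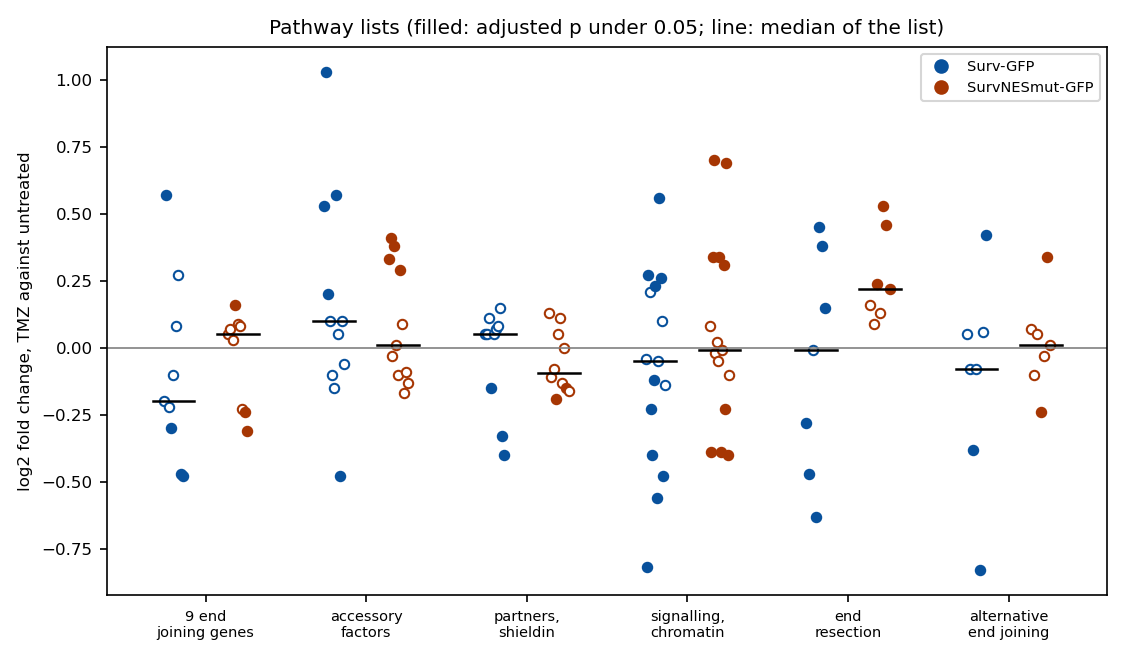
Log2 fold change of TMZ against untreated (y axis) for the 9 end joining genes and the tested genes of 5 related lists (x axis), in Surv-GFP (blue) and SurvNESmut-GFP (brown). Each point is a gene, filled at an adjusted p under 0.05, and lines are list medians, which reach 0.22 for end resection in SurvNESmut-GFP and -0.20 for the 9 genes in Surv-GFP.

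Finally, genes with the most similar pattern over the 8 libraries were sought by the root mean square difference of centered log2 CPM. TP53BP1 was nearest to RHOT1 (0.0330), a mitochondrial GTPase gene, TYK2 (0.0365), a cytokine receptor kinase gene, and POLR2I (0.0386), an RNA polymerase II subunit gene, where the median distance over 14200 genes was 0.331. RHOT1 was at 47.9 to 52.4 CPM in Surv-GFP and at 57.7 to 66.3 CPM in SurvNESmut-GFP. LIG4, which had the largest difference of TMZ effects of the 9, was nearest to TMEM199 (0.0244), NSRP1 (0.0370), a splicing regulator gene, and GOLGA3 (0.0457), a Golgi protein gene, with a median distance of 0.395. TMEM199 was at 23.2 and 25.2 CPM in untreated Surv-GFP and at 34.0 to 38.7 CPM in the other 6 libraries, the same order of group means as LIG4.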

How the data were processed

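The authors sequenced RNA of 2 LN229 clones, untreated or exposed to TMZ. They deposited unnormalized read counts per gene symbol, and their processing notes name STAR 2.5.0b, Cufflinks 2.2.1 and edgeR without roles. The counter, annotation, genome build and strandedness are not given in these sources. The authors' 5 tables of fold changes, CPM, F scores, p and FDR were not used. The 2 rows that name no gene (no feature, 11.2 to 14.3% of all counts, and ambiguous, 1.19 to 1.28%) were left out.

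Samples were grouped by their labels. Counts of all 8 libraries were fitted together, by a mean per group, in edgeR 4.0.16 (R 4.3.3, limma 3.58.1) with TMM, its expression filter and the earlier quasi-likelihood F test, adjusted by Benjamini-Hochberg over 14201 genes at 0.05. SE and 95% intervals follow from F and cover the spread between letters, taken for each gene as common to the 4 groups. They were therefore not widened for the exposed SurvNESmut-GFP libraries, which differed most from each other. Members and lists were chosen with earlier results of these data known. Named from a list are up to 3 genes with the smallest adjusted p per direction and comparison, beside the 9 genes, BIRC5, CDKN1A and the 3 genes nearest to TP53BP1 and LIG4. Genes that overlap or start beside a member, and other comparisons of named genes, were added later. Promoters came from RefSeq, exon lengths and neighbors from GENCODE v29. Alternatives were DESeq2 1.42.0 or its size factors, library size alone, other filters, the newer quasi-likelihood method, a robust prior, a minimum fold of 1.2 (glmTreat), the letter as a block, a fit of the 4 libraries concerned and the omission of single libraries. The code of the fits was tested on simulated data in which only few genes changed. These data differ from that setting, so the simulation does not show how the fits behave on them. A gene that the naming rule selects is not reported here.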

Additional observations from a re-analysis of the deposited data

Results flagged for a closer look

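The TMZ effect differed between the clones, by edgeR's test of the difference itself (SurvNESmut-GFP minus Surv-GFP, adjusted p of 0.05, log2 scale), for 3 of the 9 end joining genes, a share not above the 36.8% of all genes that passed it. These were XRCC5 (0.24), PRKDC (0.46) and LIG4 (-0.50).

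The same test passed for 17 genes of the related lists, also a share not above that of all genes. Among accessory factors the differences were -0.62 for APTX, 0.31 for TDP1 and -0.23 for C7orf49, and among the partners of 53BP1 it was 0.25 for PAXIP1. Of the genes of break signaling and histone marks, MRE11A had 0.42, H2AFX 0.43, SETD8 -0.25, SUV420H1 -0.49 and SUV420H2 0.59. The resection genes BRCA1, BARD1, DNA2 and BLM had 0.25, 0.44, 0.77 and 0.56. In alternative end joining the differences were 0.28 for POLQ, 0.79 for PARP1, -0.42 for XRCC1 and 0.42 for LIG1.

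Several of these were near the threshold. The call was lost in 8 alternatives for TDP1 (up to an adjusted p of 0.24) and SETD8 (0.18), both without the untreated Surv-GFP library a, in 7 for POLQ (0.18) and 4 for BRCA1 (0.14), both without the untreated Surv-GFP library b, in 6 for PAXIP1 (0.15, without the untreated SurvNESmut-GFP library b) and C7orf49 (0.093, with DESeq2), in 3 for MRE11A (0.083, without the exposed Surv-GFP library a) and in 1 for BARD1 (0.073, without the untreated Surv-GFP library b), not counting the test with a minimum fold. Of the proliferation markers, 11 of 12 passed the same test, all with the higher TMZ effect in SurvNESmut-GFP, whereas the genes above went in both directions. The part of proliferation was not tested.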

How the results depend on the processing

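For the 9 genes, 728 of 801 recomputed values kept their direction and their side of the threshold, 39 passed it newly, 21 no longer passed and 13 changed sign. For the list genes 1655 of 1784 kept both and 129 no longer passed. None of the sign changes was of a called value, and the cause of changes was not tested.

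With glmTreat, which tests against a minimum fold, all genes called numbered 4793 (TMZ, Surv-GFP), 1894 (TMZ, SurvNESmut-GFP), 2553 (difference) and 5798 (untreated clones), and of the 9 genes 0 were called for TMZ in SurvNESmut-GFP (edgeR at an unadjusted p of 0.05 calls 3, DESeq2 3) and 3 in each clone comparison. In Surv-GFP 7 of the 9 were called with a filter of 1 CPM in 2 libraries or only the 4 libraries compared. For the difference 5 were called with library size alone or the filter of 1 CPM, and 6 with no filter. DCLRE1C in untreated clones was at -0.01 with library size alone.

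With 1 library left out, the genes called numbered 4 to 7 for TMZ in Surv-GFP and 3 to 6 for the difference. Values that changed sign, none of them called, ranged from -0.08 to 0.13 (NHEJ1) and -0.01 to 0.12 (DCLRE1C) for TMZ in SurvNESmut-GFP, from -0.04 to 0.04 for the difference of TP53BP1, from -0.09 to 0.03 (PRKDC), -0.02 to 0.33 (XRCC4) and -0.01 to 0.11 (DCLRE1C) for untreated clones, and from -0.01 to 0.07 (XRCC5) and -0.21 to 0.01 (NHEJ1) for exposed clones. An arm with 1 library is assumed to vary like the others.

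With the letter as a replicate block, 5 of the 9 genes were called for TMZ in Surv-GFP and 4 for the difference, both through XRCC4 (0.27, adjusted p = 0.041, and -0.50, 0.020), and the other counts were 3, 6 and 6. The letters did not pair the libraries, with correlations of their deviations from -0.0671 to 0.0832. With 2 libraries a group and 183 to 280 reads for XRCC4, small changes of the low genes are not resolved.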
